A study of Mus musculus with 4 samples.

Results

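Integrins and laminins, the adhesion receptors of cells and the trimeric proteins of the basement membrane that many of them bind, were followed in RNA-seq of medullary thymic epithelial cells (mTECs). The members were all genes of the count table whose symbols name an integrin alpha subunit, an integrin beta subunit or a laminin alpha, beta or gamma chain, which gave 37 of the 23337 genes, 26 of them integrins and 11 laminins. They were grouped by the cells they are best known from into 10 epithelial integrins, 8 leukocyte integrins, 8 other integrins and the 11 laminins. The group names are labels, since other cells can carry some of these genes as well. The cells behind a level or a change were not resolved in these libraries. The epithelial genes were set against the leukocyte genes. The comparison asked how these genes differed when *Sirt6*, which encodes a histone deacetylase, was deleted in thymic epithelium.

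The cells came from thymi of 4-week-old C57BL/6 mice. The control group, WT, held mice without the Cre transgene, and the other group, *Sirt6* cKO (given as Sirt6-/- in the genotype label), held mice with both *Sirt6* alleles flanked by loxP sites and Cre under the *Foxn1* promoter, which is active in cortical and medullary thymic epithelium. Each group had 2 libraries, from mTECs sorted as CD45-EpCAM+UEA-1+Ly51- cells, and the number of mice behind a library is not given in the sources used here. The paper describes the 2 samples of each group as independent, without saying whether they came from different mice. With 2 libraries a group, p-values measure only the spread between these samples, which may be technical. An exact permutation test could not go below p = 0.333.

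An integrin is a pair of an alpha and a beta subunit that spans the membrane and ties matrix or a neighbouring cell to the actin or keratin cytoskeleton. Epithelial cells stand on laminin through integrins alpha6beta4, the receptor of hemidesmosomes, and alpha3beta1, while leukocytes use beta2 and beta7 integrins to bind other cells, such as alphaLbeta2 for ICAM-1 and alphaEbeta7 for E-cadherin. In the thymus, mTECs lie in close contact with thymocytes, dendritic cells and macrophages, which carry leukocyte integrins.

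The stretches upstream of 3 of the members that moved are shown because they give the DNA next to the start sites of a gene of each kind found below, namely an epithelial integrin that was higher (*Itgav*), a collagen receptor that was higher (*Itga1*) and a leukocyte integrin that was lower (*Itgb7*). They were taken from RefSeq on build GRCm38.p6, run 5′ to 3′ on the strand of the gene and end at the base before its start site. *Itgav* is read from chr2:83724147-83724396 on the plus strand, *Itga1* from chr13:115101965-115102214 on the minus strand and *Itgb7* from chr15:102231945-102232185 on the minus strand, 241 bases because the rest of that window lay in an annotated exon. Capitals mark GAGGAA, the core letters bound by Spi factors, on either strand.
Itgav: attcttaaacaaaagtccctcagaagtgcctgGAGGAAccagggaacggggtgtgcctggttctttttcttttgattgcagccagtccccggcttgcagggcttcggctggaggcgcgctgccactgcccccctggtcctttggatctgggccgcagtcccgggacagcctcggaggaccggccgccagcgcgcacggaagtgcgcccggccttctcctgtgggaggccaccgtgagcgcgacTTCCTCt
Itga1: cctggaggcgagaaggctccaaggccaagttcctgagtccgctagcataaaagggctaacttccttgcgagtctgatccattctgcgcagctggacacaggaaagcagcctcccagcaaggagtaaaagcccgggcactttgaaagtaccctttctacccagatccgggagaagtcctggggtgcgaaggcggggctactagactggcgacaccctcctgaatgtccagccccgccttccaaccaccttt
Itgb7: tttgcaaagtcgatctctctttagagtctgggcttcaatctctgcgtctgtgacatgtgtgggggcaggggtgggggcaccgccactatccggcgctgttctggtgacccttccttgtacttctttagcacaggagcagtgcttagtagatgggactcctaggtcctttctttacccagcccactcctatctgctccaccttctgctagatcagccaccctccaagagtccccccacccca
*Itgav* held the letters at bases -218 to -213 on its own strand and at bases -7 to -2 on the other strand. They occurred in 23.3% of 32851 RefSeq windows of 250 bases. No match on either strand of these letters, of TGTGGT (Runx), TGANTCA (AP-1), CAGGTG (E-box), GGGCGG (GC box) or the NF-kB motif was present in the windows of *Itga1* and *Itgb7*, and the GC box was the most frequent over all windows, at 32.7%. A match is a description of letters and not of a bound site. The table held a window for 23 of the 37 members, *Itgb8* among them, whose window lay within an annotated exon and is not printed. *Itgae* and *Lama3*, the other members that moved, are named only.

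The libraries held between 61102704 and 65907745 counts, of which the members took 98755 to 127829. The counts of *Sirt6* itself were 622 and 755 in WT against 882 and 835 in *Sirt6* cKO, and its log2 fold change, cKO over WT as in all that follows, was 0.37 (SE 0.32, edgeR's quasi-likelihood adjusted p = 0.80), so that the deletion was not visible in gene-level counts. The groups are therefore called by their labels, and WT 1, WT 2, cKO 1 and cKO 2 stand below for the libraries labelled so. The deleted exons were not analysed here. The paper reports that *Sirt6* was inactivated, from a western blot of cultured thymic epithelial cells and quantitative PCR of sorted medullary and cortical cells. Of 10 mTEC markers, all with counts in each library, 3 rose (*Epcam*, *Aire* and *Cd80*) and none fell, with a median log2 fold change of 0.40. *Krt8* (-0.33), *Krt18* (-0.40) and *Fezf2* (-0.195) were below 0, and for *Krt8* and *Krt18* both cKO libraries lay below both WT libraries. The summed level of the 10 markers, most of it *Krt8* and *Krt18*, was 7374 and 9515 TPM (a level scaled by gene length and by library total) in WT and 7308 and 8475 TPM in the libraries labelled *Sirt6* cKO. Of 6 markers of cortical thymic epithelium, 2 rose (*Ly75* and *Dll4*) and none fell, with summed levels of 461 and 442 TPM in WT and 510 and 335 TPM in cKO. The other 4 were below 0, namely *Psmb11* (-0.25), *Prss16* (-0.41), *Ccl25* (-0.098) and *Enpep* (-0.11), and the median over the 6 was -0.10. *Ptprc*, which encodes the CD45 that the sort selected against, had between 16820 and 26127 counts in each of the 4 libraries.

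Among the 36 members that could be tested, 4 rose and 2 fell from WT to the libraries labelled *Sirt6* cKO, a call being an unadjusted p under 0.05 by edgeR's quasi-likelihood method. *Itgav*, *Itgb8*, *Itga1* and *Lama3* were higher, *Itgae* and *Itgb7* were lower, and *Itga10*, with 114, 7, 5 and 0 counts, had too few to be tested. These 6 calls were 16.7% of the members, beside 8.58% of all 18547 genes tested (5.27% higher and 3.32% lower). Of the calls over all genes, 61.4% were higher, a share that was 48.4% with upper quartile scaling and 46.2% with library size alone. No member had an adjusted p under 0.05 in edgeR, beside 0.00539% of all genes, and 1 member, *Itgae*, did in DESeq2, beside 1.83% of all genes. The unadjusted DESeq2 test called 7 members, the same 6 and *Itgb4*, beside 10.2% of all genes.

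The count of higher members rested on single libraries. Without WT 1 it was 1, and without cKO 1 it was 2, while without WT 2 or without cKO 2 it was 6. The count of lower members was 1 without WT 2 and 1 without cKO 1. With numbered libraries taken as blocks, 2 members were higher and 1 was lower, beside 697 and 449 of 18547 genes. The number of calls over all genes also changed with the library left out, not always in the same direction as for the members.

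No test of a difference between the groups of genes was run, and they are described by counts and medians. The median log2 fold change was 0.40 over the epithelial integrins, 0.13 over the laminins, 0.020 over the leukocyte integrins and 0.79 over the 7 other integrins tested, beside -0.0047 over all genes tested. The order of these medians rested on single libraries, since without WT 1 the median was 0.26 over the epithelial and 0.29 over the leukocyte integrins, and without cKO 2 it was 0.32 and 0.41. The leukocyte median ran from -0.60 without cKO 1 to 0.41 without cKO 2, and turned to -0.070 with upper quartile scaling, and that of the laminins ran from -0.053 without cKO 2 to 0.35 without cKO 1. The median of the other integrins was 0.42 in DESeq2, 0.43 without a filter on low counts and 0.19 to 0.52 when each library was left out. Of the 10 epithelial integrins, 2 rose, none fell and 8 did not pass the test, and 7 had a log2 fold change above 0. Of the 11 laminins, 1 rose, none fell and 10 did not pass, with 7 above 0. Of the 8 leukocyte integrins, none rose, 2 fell and 6 did not pass, with 4 above 0. Of all genes tested, 5.27% rose and 3.32% fell, and groups this small hold too few calls to be set against each other. Over all members, 24 of 36 were above 0, beside 49.6% of all genes.

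**Figure D1:**
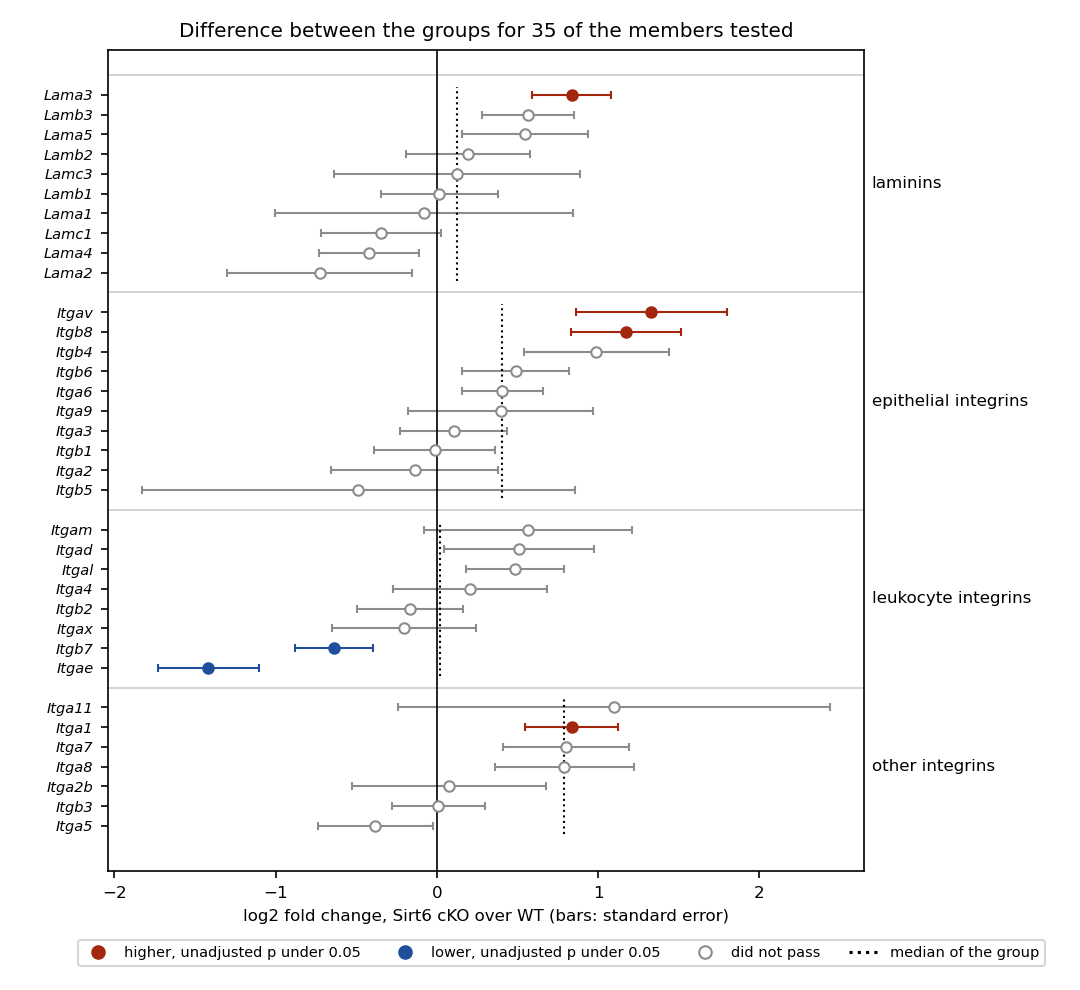
Log2 fold change of 35 of the 36 members tested (x axis, libraries labelled *Sirt6* cKO over WT, bars the standard error of the edgeR fit, dotted lines the group medians), with genes of each group ordered by value. The 4 members that rose and the 2 that fell at an unadjusted p under 0.05 are filled, and the lowest value is *Itgae* at -1.42 and the highest *Itgav* at 1.33.

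In 17 of the 36 members tested (47.2%), the WT libraries did not overlap with the libraries labelled *Sirt6* cKO in CPM. The cKO libraries were above in 14 of them and below in 3. Of all genes tested 41.9% did not overlap, 3998 with the cKO libraries above and 3765 with them below. CPM stands for counts scaled by the library total over the tested genes and by its TMM factor. Of these 17 members, 6 were epithelial integrins, all with cKO above WT, and 3 were leukocyte integrins, 1 above and 2 below. In 12 of the 37 members, the libraries of at least 1 group differed by more than 2-fold, and the median ratio between libraries of a group was 1.54 in WT and 1.34 in cKO.

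The mean levels of the members over the 4 libraries ran from 0.204 to 194 TPM. *Itgb1*, the common partner of most matrix-binding alpha subunits, was the highest, followed by *Itgb2*, the common leukocyte beta subunit, at 108 TPM. *Itgb7* was at 54.9 TPM, and *Itgb8*, *Itga6*, *Itgal*, *Itga3*, *Lamb3* and *Lamb1* lay between 28.6 and 36.4 TPM. Within that last set the libraries of neighbouring genes overlapped, so that their order is not separated from the spread. *Itga10* was lowest.

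**Figure D2:**
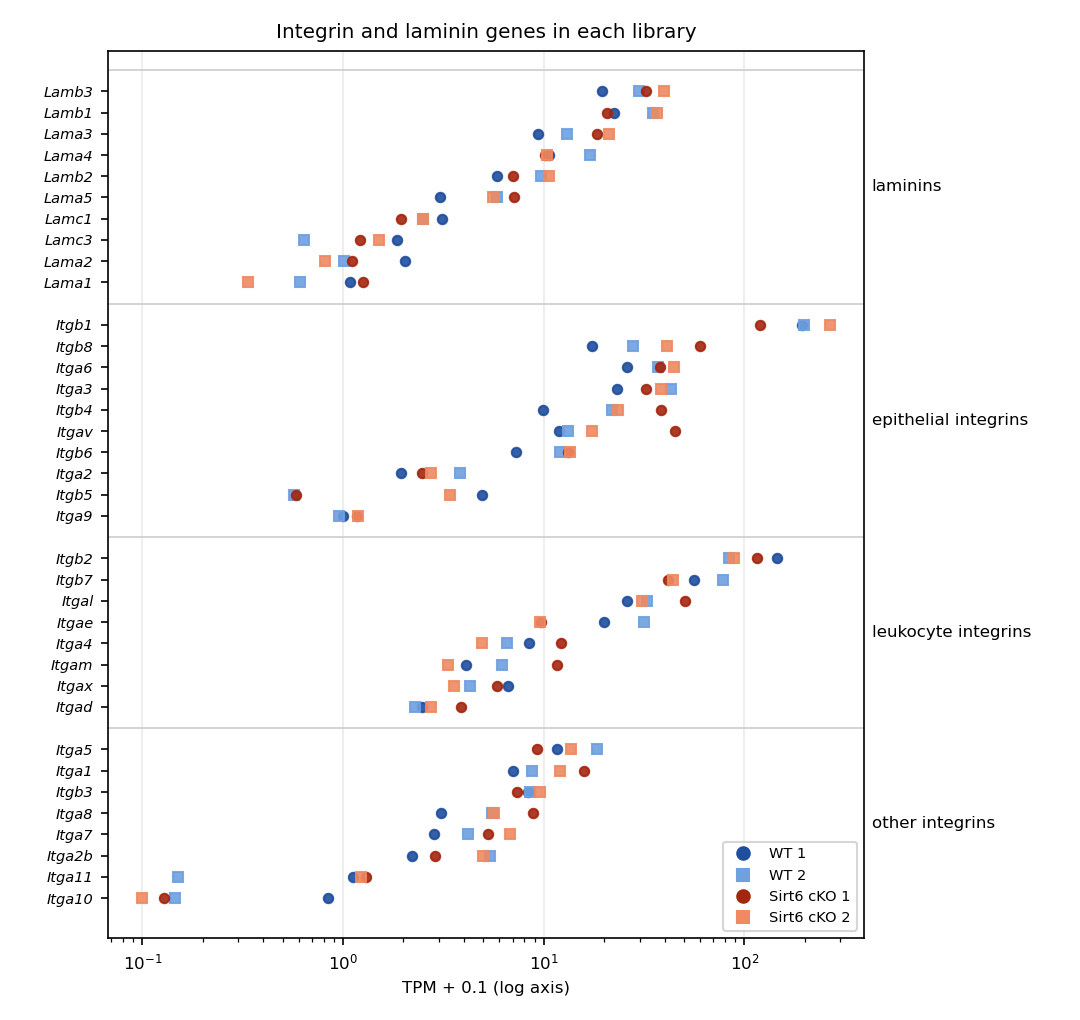
Level of 36 of the 37 members in each library (x axis, TPM + 0.1 on a log scale, blue for WT and red for the libraries labelled *Sirt6* cKO, circles for the first and squares for the second library). *Itgae* is seen with both red points left of both blue points, and *Itgav*, *Itgb8*, *Itga1* and *Lama3* with both red points to the right.

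Laminin-332, the laminin of epithelial basement membranes and the ligand of alpha6beta4, holds the chains that *Lama3* and *Lamb3* encode. *Lama3* (laminin alpha3) was at 9.27 TPM in WT 1, 12.9 TPM in WT 2, 18.3 TPM in cKO 1 and 21.0 TPM in cKO 2. Both cKO libraries lay above both WT libraries, at 19.6 ± 1.94 TPM against 11.1 ± 2.58 TPM (SD, n = 2 each). It rose 1.78-fold, with a log2 fold change of 0.84 (SE 0.25, unadjusted p = 0.0171 and adjusted p = 0.541 in edgeR's quasi-likelihood test). Without WT 1 the log2 difference was 0.61 and without cKO 2 it was 0.72, and neither passed the test.

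*Lamb3* (laminin beta3) lay on the same side without passing the test. It was at 19.5 and 29.7 TPM in WT and at 32.3 and 39.8 TPM in cKO, a log2 fold change of 0.57 (SE 0.29). The groups did not overlap, and the difference passed without WT 2, at 0.88, and was 0.28 without WT 1. The chains were not at equal levels, since the TPM of *Lamb3* over that of *Lama3* was 2.10 and 2.30 in WT and 1.77 and 1.89 in cKO, which did not overlap.

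Laminin-511 and laminin-521, of wider distribution in basement membranes, share the alpha5 and gamma1 chains and differ in their beta chain. *Lama5* (alpha5) was at 2.95 and 5.73 TPM in WT and at 7.05 and 5.50 TPM in cKO, with a log2 fold change of 0.55 (SE 0.39), which passed without WT 2, at 1.08, and was 0.13 without WT 1. *Lamc1* (gamma1) was at 3.02 and 2.41 TPM in WT and at 1.83 and 2.41 TPM in cKO, with a log2 fold change of -0.35 (SE 0.37). The chains of this laminin were thus not on the same side, and for both the groups overlapped. *Lamb1* (beta1) was at 22.4 and 34.8 TPM in WT and 20.6 and 36.7 TPM in cKO, a log2 fold change of 0.017 (SE 0.36) whose sign turned with the scaling, at -0.055 with upper quartile scaling and -0.074 with library size alone. *Lamb2* (beta2), at 5.76 and 9.64 TPM in WT and 6.95 and 10.5 TPM in cKO, had a log2 fold change of 0.19 (SE 0.38). The other laminins, *Lama1*, *Lama2*, *Lama4* and *Lamc3*, had log2 fold changes from -0.73 to 0.13 and none passed, and of these only *Lama4*, a chain of vessel and mesenchymal basement membranes, had groups apart, with cKO below WT.

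The laminin receptor alpha6beta4 is the integrin of hemidesmosomes. *Itgb4* (beta4) was at 9.81 TPM in WT 1, 21.7 TPM in WT 2, 38.3 TPM in cKO 1 and 23.4 TPM in cKO 2. Both cKO libraries were above WT, although cKO 2 lay close to WT 2, and the log2 fold change was 0.99 (SE 0.45, unadjusted p = 0.0749 in edgeR and 0.0287 in DESeq2). It passed in edgeR without WT 2, at 1.64, and without cKO 2, at 1.28, while the difference was 0.52 without WT 1 and 0.59 without cKO 1, and neither passed. Exons of *Itgb4* overlap those of B230344G16Rik on the other strand over 7.66% of their length. *Itga6* (alpha6) was at 26.0 and 36.8 TPM in WT and at 37.9 and 44.7 TPM in cKO, with a log2 fold change of 0.41 (SE 0.25). The TPM of *Itga6* over that of *Itgb4* was 2.65 and 1.70 in WT and 0.992 and 1.91 in cKO, which overlapped.

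For the laminin receptor alpha3beta1 the groups overlapped in both subunits. *Itga3* (alpha3) was at 23.2 and 43.1 TPM in WT and 32.2 and 38.4 TPM in cKO, a log2 fold change of 0.10 (SE 0.33), with the cKO libraries between the WT libraries. *Itgb1* (beta1) was at 193 and 197 TPM in WT and at 119 and 266 TPM in cKO. The cKO libraries lay on either side of WT, and the log2 fold change was -0.013 (SE 0.38), with -0.72 without cKO 2, where it passed, and 0.45 without cKO 1. *Itgb1* took 32.1% and 30.2% of the summed integrin TPM in WT and 18.3% and 38.5% in cKO.

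Integrin alphaVbeta8 binds latent TGF-beta and takes part in its activation. *Itgb8* (beta8) was at 17.3 TPM in WT 1, 27.7 TPM in WT 2, 59.7 TPM in cKO 1 and 40.9 TPM in cKO 2. Both cKO libraries were above WT, at 50.3 ± 13.2 TPM against 22.5 ± 7.38 TPM (SD, n = 2 each). It rose 2.26-fold, with a log2 fold change of 1.17 (SE 0.34, unadjusted p = 0.0159 and adjusted p = 0.541 in edgeR, adjusted p = 0.0728 in DESeq2). The difference was 0.86 without WT 1 and 0.87 without cKO 1, and neither passed. The gene lies at chr12:119158022-119238802 on the minus strand of GRCm38.

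Its partner *Itgav* (alphaV) was at 11.9 TPM in WT 1, 13.0 TPM in WT 2, 44.8 TPM in cKO 1 and 17.2 TPM in cKO 2. The cKO libraries were both above WT but far from each other, at 31.0 ± 19.5 TPM against 12.5 ± 0.828 TPM (SD, n = 2 each). It rose 2.51-fold, with a log2 fold change of 1.33 (SE 0.47, unadjusted p = 0.0334 and adjusted p = 0.550 in edgeR, adjusted p = 0.117 in DESeq2). Library cKO 1 set the size of this change, since the log2 difference was 0.48 without it and 1.85 without cKO 2, and the call was lost without WT 1 (1.26), without WT 2 (1.38) and without cKO 1. The exons of *Itgav*, at chr2:83724397-83806916 on the plus strand, overlap those of Gm13684 on the other strand over 634 bases, or 5.90% of their length, and whether the counting used strand is not given in the sources used here.

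The TPM of *Itgav* over that of *Itgb8* was 0.686 and 0.470 in WT and 0.751 and 0.421 in cKO. The genes of this pair thus kept overlapping ratios. Which cells gave the RNA of *Itgav* and *Itgb8* was not tested. *Itgb6* (beta6), the other epithelial partner of alphaV that binds latent TGF-beta, was at 7.15 and 11.9 TPM in WT and 13.1 and 13.4 TPM in cKO, with a log2 fold change of 0.49 (SE 0.33). The cKO libraries were above WT and it did not pass the test. Among the TGF-beta genes of the ligand list, picked for mention after their values were seen, *Tgfb1* gave 36 and 8 counts in the WT libraries against 117 and 39 in the cKO libraries (log2 fold change 1.91, SE 1.38) and *Tgfb3* a log2 fold change of -0.027 (SE 0.34). The remaining epithelial integrins, *Itga2*, *Itga9* and *Itgb5*, had log2 fold changes from -0.49 to 0.40 and none passed.

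Of the other integrins, *Itga1* (alpha1), which pairs with beta1 and binds collagens, was at 6.93 TPM in WT 1, 8.68 TPM in WT 2, 15.7 TPM in cKO 1 and 11.9 TPM in cKO 2. Both cKO libraries were above WT, at 13.8 ± 2.67 TPM against 7.80 ± 1.24 TPM (SD, n = 2 each). It rose 1.78-fold, with a log2 fold change of 0.84 (SE 0.29, unadjusted p = 0.0313 and adjusted p = 0.548 in edgeR). Without WT 1 it was 0.68 and without cKO 1 it was 0.62, and neither passed. *Itga1*, at chr13:114953096-115101964 on the minus strand, is carried by mesenchymal cells and by some lymphocytes as well as by epithelium, and its exons overlap those of Gm49395 on the same strand over 3.68% of their length.

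*Itga7* and *Itga8*, alpha subunits best known from muscle and mesenchyme, also had both cKO libraries above WT without passing the test. *Itga7* was at 2.75 and 4.11 TPM in WT and 5.15 and 6.71 TPM in cKO, with a log2 fold change of 0.80 (SE 0.39). *Itga8* was at 2.99 and 5.40 TPM in WT and 8.79 and 5.56 TPM in cKO, with a log2 fold change of 0.79 (SE 0.43). *Itga11*, a collagen receptor of fibroblasts, gave 153 and 8 counts in the WT libraries against 165 and 163 in the cKO libraries, so that WT 2 alone stood apart, and its log2 fold change of 1.10 (SE 1.34) went to 4.34 without WT 1, where it passed, and to 0.17 without WT 2. *Itga2b*, *Itga5* and *Itgb3* had log2 fold changes from -0.38 to 0.08 and none passed. Of 6 fibroblast markers, all with counts in each library, 1 fell (*Lum*) and none rose, and their summed level was 589 and 670 TPM in WT and 513 and 615 TPM in cKO. Of 5 endothelial markers none passed, with summed levels of 60.1 and 43.2 TPM in WT and 43.4 and 50.0 TPM in cKO, and of 5 platelet markers 1 rose (*Gp1bb*) and none fell, with 19.9 and 30.4 TPM in WT and 31.1 and 19.4 TPM in cKO. Their part in these results was not tested.

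**Figure D3:**
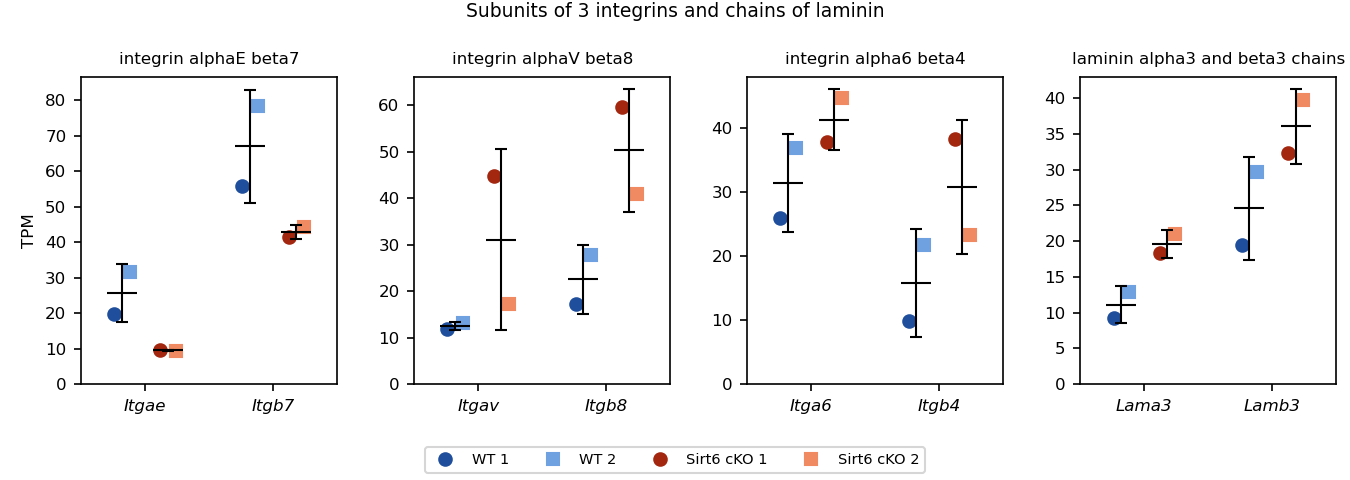
Level in TPM (y axis) of the subunits of integrins alphaEbeta7, alphaVbeta8 and alpha6beta4 and of the laminin alpha3 and beta3 chains in each library, with horizontal lines at the mean and bars of 1 SD (n = 2). *Itgae* and *Itgb7* are lower in both cKO libraries, and *Itgav* shows cKO 1 at 44.8 TPM far above the other 3 libraries.

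Integrin alphaEbeta7, whose alpha subunit is CD103, is carried by CD8 lineage thymocytes, by lymphocytes within epithelia and by some dendritic cells, and binds E-cadherin on epithelial cells. *Itgae* (alphaE) was at 19.8 TPM in WT 1, 31.4 TPM in WT 2, 9.59 TPM in cKO 1 and 9.43 TPM in cKO 2, from 2293, 3441, 1019 and 1058 counts. Both cKO libraries lay below both WT libraries, at 9.51 ± 0.113 TPM against 25.6 ± 8.24 TPM (SD, n = 2 each). It fell 2.67-fold, with a log2 fold change of -1.42 (SE 0.31, unadjusted p = 0.00529 and adjusted p = 0.541 in edgeR, adjusted p = 0.00893 in DESeq2). The call held when each library was left out in turn, with log2 fold changes from -1.72 without WT 1 to -1.07 without WT 2. In bulk RNA, fewer cells that carry a gene and less of its RNA in each cell cannot be told apart. *Itgae* lies at chr11:73090583-73147446 on the plus strand of GRCm38.

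*Itgb7* (beta7) was at 55.8 TPM in WT 1, 78.2 TPM in WT 2, 41.3 TPM in cKO 1 and 44.1 TPM in cKO 2. Both cKO libraries were below WT, at 42.7 ± 1.95 TPM against 67.0 ± 15.9 TPM (SD, n = 2 each). It fell 1.56-fold, with a log2 fold change of -0.64 (SE 0.24, unadjusted p = 0.0446 and adjusted p = 0.567 in edgeR, adjusted p = 0.309 in DESeq2). The call was lost without WT 2 (-0.40), without cKO 1 (-0.59) and without cKO 2 (-0.70). The TPM of *Itgae* over that of *Itgb7* was 0.355 and 0.402 in WT and 0.232 and 0.214 in cKO, which did not overlap. *Itgb7* lies at chr15:102215995-102231944 on the minus strand. The other alpha partner of beta7, *Itga4* (alpha4), was at 8.34 and 6.47 TPM in WT and 12.1 and 4.85 TPM in cKO, with the cKO libraries on either side of WT and a log2 fold change of 0.21 (SE 0.48). Exons of *Itga4* overlap those of *Cerkl* on the other strand over 8.04% of their length.

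The beta2 integrins are the leukocyte receptors for ICAM molecules and complement fragments. *Itgal* (alphaL), which is found on most leukocytes, was at 25.8 and 32.4 TPM in WT and 50.2 and 30.6 TPM in cKO, with a log2 fold change of 0.49 (SE 0.30), which passed without cKO 2, at 0.78, and was 0.083 without cKO 1. The common subunit *Itgb2* (beta2) was at 146 and 83.5 TPM in WT and 116 and 88.2 TPM in cKO, a log2 fold change of -0.16 (SE 0.33). For both genes the groups overlapped. The TPM of *Itgal* over that of *Itgae* was 1.30 and 1.03 in WT and 5.23 and 3.25 in cKO, which did not overlap.

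The myeloid partners of beta2 were lower in level and spread widely. *Itgam* (alphaM), of macrophages and granulocytes, was at 3.98 and 6.12 TPM in WT and 11.6 and 3.24 TPM in cKO, a log2 fold change of 0.57 (SE 0.64) that passed without cKO 2, at 1.19, and was -0.63 without cKO 1. Its exons overlap those of Gm49368 on the same strand over 68.7% of their length, so that its counts are uncertain. *Itgax* (alphaX), of dendritic cells and macrophages, was at 6.53 and 4.17 TPM in WT and 5.77 and 3.49 TPM in cKO, a log2 fold change of -0.20 (SE 0.45). *Itgad* (alphaD) was at 2.36 and 2.17 TPM in WT and 3.77 and 2.63 TPM in cKO, with cKO above WT and a log2 fold change of 0.51 (SE 0.47), and its exons overlap 4 annotated genes, the longest overlap being 8.60% of their length with 4931431B13Rik on the other strand. The TPM of *Itgb2* over the sum of these 4 alpha subunits was 3.78 and 1.86 in WT and 1.62 and 2.21 in cKO.

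Markers of cells that carry leukocyte integrins were present in each library and moved in part. Of 12 thymocyte markers none passed the test, 9 had log2 fold changes below 0, the median was -0.42, and the summed level was 1650 and 1184 TPM in WT and 1436 and 864 TPM in cKO. In 4 of the 12 (33.3%, beside 41.9% of all genes) the groups did not overlap in CPM, all with cKO below WT. Of the CD8 genes, *Cd8b1* (-0.56) was among these 4, and *Cd8a* (-0.34) had groups that overlapped. Of 11 macrophage and dendritic cell markers, 6 fell (*Emr1*, *Lyz2*, *C1qa*, *C1qb*, *C1qc* and *Cd68*) and none rose, with a median of -1.02. The 5 that did not pass were *Csf1r* (-0.56), *Flt3* (-0.36), *Xcr1* (-0.67), *Sirpa* (-0.43) and *Zbtb46* (0.56). Of the 11 markers, 10 were thus below 0 and 1, *Zbtb46*, was above. The summed levels of the 11 markers were 11535 and 6811 TPM in WT and 4199 and 4546 TPM in cKO. The 4 macrophage and dendritic cell sums did not overlap between groups, and those of thymocytes did. Most of each macrophage and dendritic cell sum was *Lyz2* alone, at 9532 and 5941 TPM in WT and 3664 and 3955 TPM in cKO. Of 5 B cell markers none passed, with 244 and 203 TPM in WT and 212 and 162 TPM in cKO, and *Pax5* was at 0 counts in WT 1 and in cKO 2. The part of these cells in the lower *Itgae* and *Itgb7* was not tested.

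**Figure D4:**
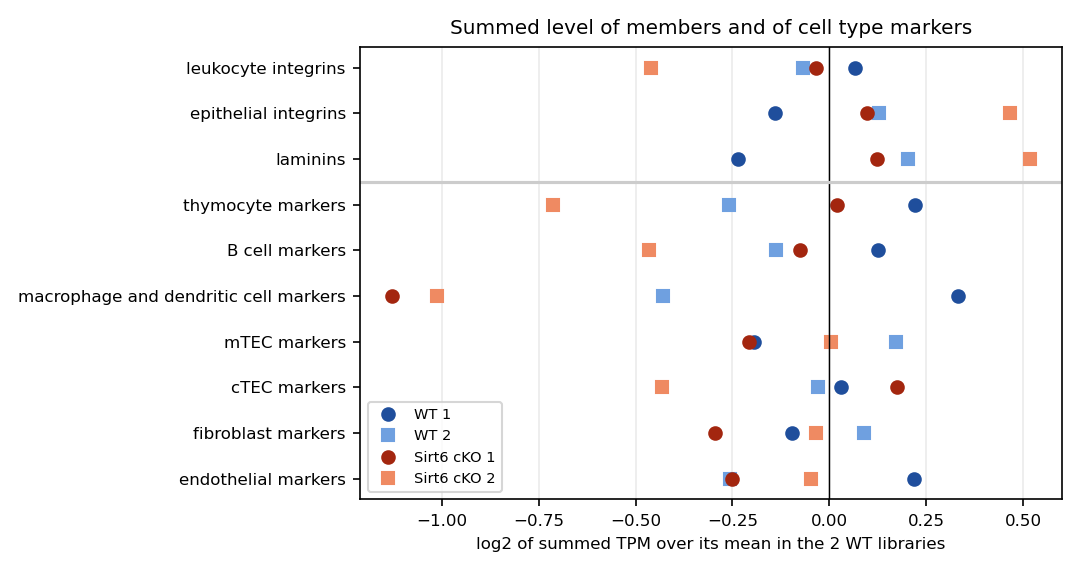
Summed TPM of the leukocyte integrins, the epithelial integrins, the laminins and 7 lists of cell type markers in each library, as log2 of the sum over its mean in the WT libraries (x axis). The sum of the macrophage and dendritic cell markers, most of it *Lyz2*, lies lower in both cKO libraries. The leukocyte integrins lie lowest and the epithelial integrins and laminins highest in cKO 2.

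Summed by kind, the epithelial integrins were at 296 and 356 TPM in WT and 349 and 451 TPM in cKO, and the leukocyte integrins at 268 and 245 TPM in WT and 250 and 187 TPM in cKO. Both sums overlapped between the groups, as did that of the laminins, at 153 and 207 TPM in WT and 196 and 257 TPM in cKO. The leukocyte integrins made up 44.7% and 37.5% of the integrin TPM in WT and 38.5% and 27.0% in cKO. The epithelial sum over the leukocyte sum was 1.10 and 1.46 in WT and 1.40 and 2.42 in cKO. *Itgb1* was the largest part of the epithelial sum in each library, at 193 and 197 TPM in WT and 119 and 266 TPM in cKO. The overlap of that sum and the ratio therefore depend on this gene, and no sum without it was made. Its product also pairs with the subunit that *Itga1* encodes, which mesenchymal cells and some lymphocytes carry. The epithelial sum and the ratio thus cannot be read as epithelial cells alone. Library cKO 2 had the highest ratio and also the lowest thymocyte sum and the lowest B cell sum of the 4 libraries, and WT 1 had the lowest ratio and the highest of both sums. Their part in the ratio was not tested.

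The other genes of integrin adhesion, 68 in all, had 9 that rose and 2 that fell, beside 5.27% of all genes that rose and 3.32% that fell. With upper quartile scaling 5 rose and with library size alone 3 did, beside 751 and 721 of 18547 genes. In both settings 2 fell, beside 800 and 838 of all genes. Of 27 genes of the adhesion complex, which links integrin tails to actin, 5 rose and 1 fell, and the median log2 fold change was 0.031. Of 21 genes of the basement membrane and hemidesmosome, 2 rose and none fell, with a median of 0.17. Of 20 further integrin ligands, 2 rose and 1 fell, with a median of 0.29. The count of 9 became 5 without WT 1 and 4 without cKO 1, and 14 without WT 2. The count of 2 became 1 without WT 1 and 0 without cKO 1.

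In the adhesion complex, *Vcl* (vinculin, which binds talin and actin) was at 33.3 and 30.0 TPM in WT and 65.4 and 62.2 TPM in cKO. It rose with a log2 fold change of 1.02 (SE 0.19, unadjusted p = 0.00242 in edgeR and adjusted p = 0.00226 in DESeq2), and the call held when each library was left out. *Pxn* (paxillin, a scaffold of focal adhesions) was at 12.9 and 20.4 TPM in WT and 92.7 and 36.2 TPM in cKO. It rose with a log2 fold change of 1.98 (SE 0.51), was 1.14 without cKO 1 and did not pass without WT 1, at 1.67. *Tln2* (a talin, which binds beta tails) fell by 1.30 on the log2 scale (SE 0.41), from 1.64 and 1.90 TPM to 0.591 and 0.839 TPM, and did not pass without WT 2 (-1.21) or without cKO 1 (-1.07). *Ptk2b* and *Src* also rose, with log2 fold changes of 0.73 and 1.15, and are outside the naming rule.

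In the basement membrane list, *Col4a1* (a chain of type IV collagen) was at 12.6 and 19.1 TPM in WT and 37.1 and 29.2 TPM in cKO, and rose with a log2 fold change of 1.08 (SE 0.28, adjusted p = 0.0485 in DESeq2), which did not pass in edgeR without cKO 1 (0.89). *Col17a1* (the transmembrane collagen of hemidesmosomes) was at 15.2 and 30.3 TPM in WT and 40.7 and 43.3 TPM in cKO. It rose with a log2 fold change of 0.90 (SE 0.35), and the call was lost without WT 1 (0.48), without cKO 1 (0.94) and without cKO 2 (0.84), and with either simpler scaling. *Col4a5*, another type IV collagen chain, had a log2 fold change of 1.56 (SE 0.66) and did not pass in edgeR. It passed in DESeq2 (unadjusted p = 0.0217), in edgeR with the filter of TPM over 0.1 (unadjusted p = 0.0487) and without WT 2, at 2.74, and was 0.89 without WT 1.

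Among the ligands, *Cdh1* (E-cadherin, the ligand of alphaEbeta7) was at 95.1 and 172 TPM in WT and 259 and 206 TPM in cKO, and *Icam1* (a ligand of alphaLbeta2 and alphaMbeta2) at 1341 and 1453 TPM in WT and 1714 and 2035 TPM in cKO. Both had cKO above WT and rose, *Cdh1* with a log2 fold change of 0.82 (SE 0.30) and *Icam1* with 0.43 (SE 0.15), and both lost the call with upper quartile scaling (0.73 and 0.36) and with library size alone (0.72 and 0.34). The call of *Cdh1* was also lost without WT 1 (0.44) and without cKO 1 (0.64), and that of *Icam1* without WT 1 (0.37), without WT 2 (0.47) and without cKO 2 (0.29). *Spp1* (osteopontin, a ligand of alphaV integrins that macrophages also make) was at 409 and 289 TPM in WT and 186 and 250 TPM in cKO. It fell by 0.68 on the log2 scale (SE 0.26), and the call was lost without WT 1 (-0.42) and without cKO 1 (-0.48).

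**Figure D5:**
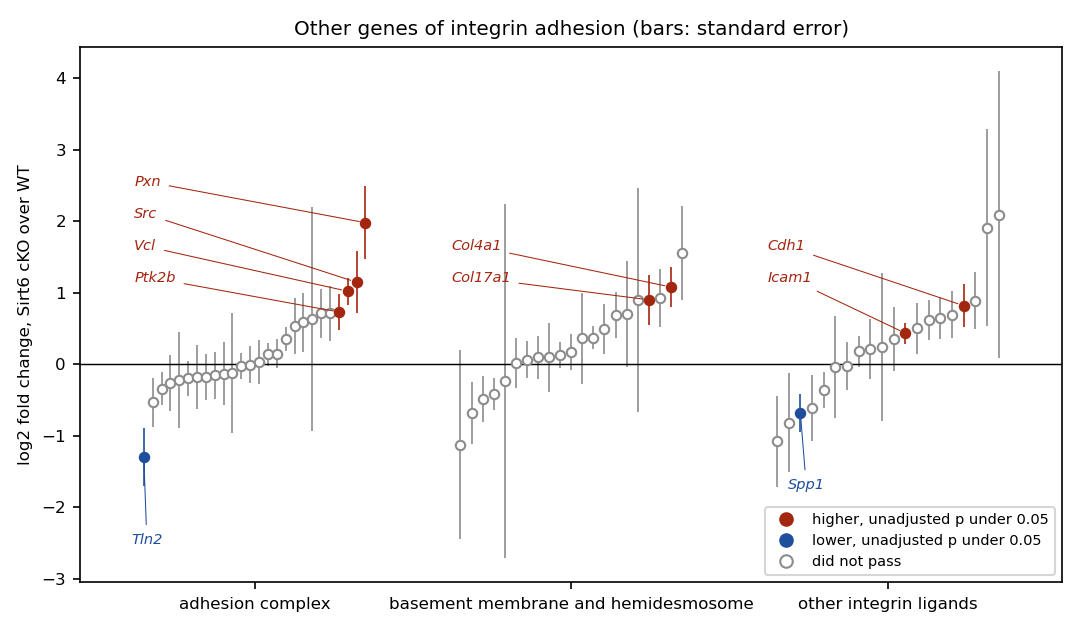
Log2 fold change (y axis, libraries labelled *Sirt6* cKO over WT, bars the standard error) of 67 of the 68 other genes of integrin adhesion in 3 lists, each ordered by value. The 8 genes plotted that rose and the 2 that fell at an unadjusted p under 0.05 are filled and named.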

How the data were processed

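RNA-seq of 4 sorted mTEC libraries, 2 a group, was used. The authors used Trim Galore on the reads, HISAT2 2.1.0 for alignment to mm10 and StringTie 1.3.3 to quantify genes, as the methods and the submitters' processing notes give, and deposited whole-number counts per gene for all libraries and a TPM table per library. The annotation and the strand setting are not given in the sources used here. Each TPM table has 1 line, a column total, that names no gene and was left out. For 96.12% of genes the ratio of count to TPM fitted 1 length in all libraries (tolerance 0.05 on the log2 scale).

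Counts were tested over all genes with edgeR 4.0.16 (TMM scaling, filterByExpr with a minimum of 10 counts and 15 in total, quasi-likelihood test, Benjamini-Hochberg adjustment) in R 4.3.3. A gene was called at an unadjusted p under 0.05, as in the gene counts of the study, whose methods also state a threshold of an adjusted p under 0.05 with a fold over 2 in DESeq2. Alternatives were DESeq2 1.42.0, limma 3.58.1 on log2(TPM + 1) and log2(TPM + 0.1), other filters and scalings, a replicate block and leaving out each library. A single library left in a group was assumed to vary like the other group. The scripts were tested on simulated data. Values in each library are given for members called, for members whose groups did not overlap with a log2 fold change over 0.5 in size, and for the subunits of named integrins and laminins, and the 3 genes with the smallest p are named in each list of other genes. The members, lists and tests were chosen with earlier results of these data known. Of the members and lists, 1 member and 1 other gene are counted but not reported here. Gene coordinates are from GENCODE M21 on GRCm38. Library totals, between 61102704 and 65907745 counts, limit the precision for members with few counts.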

Additional observations from a re-analysis of the deposited data

How the results depend on the processing

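The count of 4 higher members became 2 with the replicate block, 2 in limma with a pseudocount of 1 TPM and 2 with 0.1 TPM, and 1 to 6 when each library was left out. The count of 2 lower members became 1 with the replicate block and 1 to 2 when each library was left out. Members with an adjusted p under 0.05 numbered 0 in edgeR, 0 when each library was left out and 1 in DESeq2. The count of 9 higher other adhesion genes became 5 with upper quartile scaling, 3 with library size alone and 4 to 14 when each library was left out, and the 2 lower ones became 1 with the replicate block, 1 with either limma setting and 0 to 3 when each library was left out. The median of the other integrins, 0.79, was 0.42 in DESeq2 and 0.43 both without a filter on low counts and with a filter of TPM over 0.1, where the genes tested differ, and 0.19 to 0.52 when each library was left out. The same ranges were 0.26 to 0.63 for epithelial integrins, -0.053 to 0.35 for laminins and -0.60 to 0.41 for leukocyte integrins. *Lamb1* turned from 0.017 to -0.055 with upper quartile scaling, -0.074 with library size alone, -0.011 with the replicate block, and -0.018 and -0.020 in limma with pseudocounts of 1 and 0.1 TPM. When each library was left out, log2 fold changes that turned sign ran from -0.28 to 0.60 for *Itga3*, -0.61 to 0.71 for *Itga4*, -0.63 to 1.19 for *Itgam*, -0.61 to 0.16 for *Itgax*, -0.72 to 0.45 for *Itgb1*, -0.53 to 0.29 for *Itgb2*, -0.47 to 0.37 for *Lamb1* and -0.15 to 0.59 for *Lamb2*. The causes were not tested, and the number of calls over all genes changed with the settings as well. Of 311 other values for 26 members, 264 kept direction and side of the threshold, 19 lost the call, 10 gained it and 18 turned sign.

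*Itgae*, *Itgb8* and *Lama3* passed in all 8 settings that kept every library, *Itgb7* in 7, and *Itgav* and *Itga1* in 5. The labels do not say whether the replicate numbers pair the libraries. The deviations of libraries with the same number correlated at -0.0544 over genes, a single value that cannot decide it. Under the block *Itga1* (0.83), *Itgav* (1.17) and *Itgb7* (-0.62) did not pass. Over all genes, calls were higher in 61.4% of cases with TMM, 48.4% with upper quartile scaling and 46.2% with library size alone. With 2 libraries a group, the number of libraries limits what can be called, and members of few counts, such as *Itga10*, are limited by depth as well.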

Other observations

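*Itgb5*, an epithelial integrin that partners alphaV, is given in each library here because of its values, having been described by range only above. The counts were 479 in WT 1, 44 in WT 2, 44 in cKO 1 and 320 in cKO 2, so that 1 library of each group was high and the other low. Its libraries differed 10.6-fold within WT and 6.84-fold within cKO, the log2 fold change was -0.49 (SE 1.34), and no statement on the groups can be made from it. *Itga10*, also picked after its values were seen, was at 0.742 TPM in WT 1 and at most 0.0448 TPM in the other 3 libraries.

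Genes with related symbols that are not integrin subunits of the set, such as *Itgbl1*, an integrin beta-like gene, and *Itgb3bp*, had no call. *Itgbl1* gave 349 and 230 counts in the WT libraries against 151 and 181 in the cKO libraries, with cKO below WT and a log2 fold change of -0.75 (SE 0.56). *Itgb3bp* gave 347 and 78 counts in the WT libraries against 176 and 302 in the cKO libraries, which overlapped.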
